A study of Mus musculus with 15 samples.

Results

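The elongation factors and other classical terminal oligopyrimidine (TOP) mRNAs followed here are 9 genes, *Eef1a1*, *Eef1b2*, *Eef1d*, *Eef1e1*, *Eef1g*, *Eef2*, *Eef2k*, *Tpt1* and *Pabpc1*. They were chosen by symbol, and each is represented by 1 counted transcript, so that the set holds 9 of the 21699 genes in the count table. All 9 passed the filter on low counts, among 10085 transcripts tested. The counts came from ribosome profiling of E14Tg2a.4 mESCs, a feeder-independent mouse embryonic stem cell line, kept on gelatin with LIF. The paralogous ribosomal proteins Rps27 (eS27) and Rps27l (eS27L) were compared in *Rps27-FLAG* cells, which carry a 3xFLAG tag at the C-terminus of Rps27 on both endogenous alleles, in *Rps27l-FLAG* cells, which carry the same tag on Rps27l, and in untagged WT cells. Each line was represented by 3 independent clones, and all cells were treated with cycloheximide before lysis. Ribosome-protected fragments were sequenced from ribosomes pelleted through a sucrose cushion in all 3 lines (total RPFs) and from ribosomes immunoprecipitated with anti-FLAG beads in both tagged lines (IP RPFs), which gave 5 conditions of 3 libraries. The IP and total RPFs of a replicate came from the same clone, and the replicate number is also the sequencing batch. IP RPFs of untagged cells were not used here, so that RNA held by the beads without a tag cannot be told apart from RNA of tagged ribosomes.

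Elongation is the stage of translation in which the ribosome adds amino acids codon by codon. eEF1A, made from *Eef1a1*, brings aminoacyl-tRNA to the ribosome as a GTP complex, and the eEF1B complex, whose subunits come from *Eef1b2*, *Eef1d* and *Eef1g*, reloads it with GTP. eEF2 then moves the ribosome along the mRNA, and the kinase eEF2K, made from *Eef2k*, inhibits eEF2 by phosphorylation. Despite its symbol, the *Eef1e1* product (AIMP3) is an auxiliary protein of the multi-tRNA synthetase complex. *Tpt1* encodes the translationally controlled tumor protein and *Pabpc1* the cytoplasmic poly(A)-binding protein. TOP mRNAs begin at the cap with a C followed by an unbroken run of pyrimidines, are bound there by LARP1 and change their translation with mTORC1 activity. Among the 9 genes, *Eef1e1* and *Eef2k* are not classical TOP mRNAs and belong to the set as elongation-related genes.

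The first bases of the annotated transcripts are shown because the TOP class is defined by them. RefSeq start windows on GRCm38.p6 were available here for *Eef1a1*, *Eef1b2*, *Eef1e1*, *Eef2*, *Eef2k* and *Tpt1*, and not for *Eef1d*, *Eef1g* or *Pabpc1*. Each window runs 5′ to 3′ on the transcript strand, from 5 bases before the annotated start, over 30 bases. Capitals mark the run of a C followed by at least 4 pyrimidines where the window holds one. *Eef2k* has more than 1 annotated start, and the window of the counted transcript is printed. The RefSeq start is also that of the counted transcript for *Eef1a1* and *Eef2*. It lies downstream of the counted transcript's start for *Tpt1* (75845256 against 75845093), *Eef1e1* (38659028 against 38659058, minus strand) and *Eef1b2* (63176831 against 63176825).
Eef1a1: CCCTCTTCCCgagggtgggggagaacggta
Eef1b2: gttccgccggaagtagccgaggccttgcgt
Eef1e1: agctgtgcaggccccgCCTCCCTaggagct
Eef2: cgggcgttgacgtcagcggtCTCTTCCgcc
Eef2k: gcgtcagtcccgccccagccctggtcccag
Tpt1: acgacagttccgggggagccgcggacggtg
The windows lie at chr9:78481700-78481729 on the minus strand (*Eef1a1*), chr1:63176826-63176855 on the plus strand (*Eef1b2*), chr13:38659004-38659033 on the minus strand (*Eef1e1*), chr10:81176626-81176655 on the plus strand (*Eef2*), chr7:120842826-120842855 on the plus strand (*Eef2k*) and chr14:75845251-75845280 on the plus strand (*Tpt1*). In the *Eef1a1* window the run held the first printed base, 5 bases before the annotated start, and bases farther upstream were not searched. The *Eef2* and *Eef1e1* runs lay downstream of the start. A run beginning exactly at the annotated start was found in 0 of these 6 genes and in 823 of all 32851 RefSeq windows (2.51%). Within 5 bases of the start it was found in 1 of the 6 genes, *Eef1a1*, and in 18.3% of all windows. At the GENCODE start of the counted transcripts, *Pabpc1* was the 1 of 9 members with the run, against 504 of 21713 transcripts (2.32%) and 8 of 84 cytosolic ribosomal protein transcripts. The search used the transcript strand only. An annotated start need not be the cap site used in these cells, and the absence of a run says only that these letters are not at that position.

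The counted transcripts lie on GRCm38 at chr9:78478449-78481724 (*Eef1a1*, minus strand, CDS of 1389 nt), chr1:63176825-63180486 (*Eef1b2*, plus, 678 nt), chr15:75894205-75909355 (*Eef1d*, minus, 846 nt), chr13:38644207-38659058 (*Eef1e1*, minus, 525 nt), chr19:8967041-8978479 (*Eef1g*, plus, 1314 nt), chr10:81176631-81182498 (*Eef2*, plus, 2577 nt), chr7:120842831-120907450 (*Eef2k*, plus, 2175 nt), chr14:75845093-75848415 (*Tpt1*, plus, 519 nt) and chr15:36595661-36608973 (*Pabpc1*, minus, 1911 nt). Only uniquely aligned footprints over the CDS, without the first 15 and last 5 codons, had been counted. Of the 1302 windows of 28 nt in the counted *Eef1a1* CDS, 395 also occurred in *Gm6548*, an *Eef1a1* copy listed at 0 counts in all 15 libraries, and 990 lay within 2 mismatches of it. The *Eef1a1* counts therefore leave out footprints from the shared sequence. In *Pabpc1*, 34 of 1824 windows were shared with *Pabpc2* or *Pabpc6* and 468 lay within 2 mismatches of a relative. The other 7 genes had no shared window.

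The libraries held between 3972152 and 8064166 counts, of which the 9 members took 1.10% to 1.33%. Member counts per library ranged from 15553 to 31395 for *Eef2*, the most abundant, and from 50 to 177 for *Eef2k*. The other 7 members had at least 531 counts in every library. All 10 mESC markers exceeded 2 CPM in all 15 libraries, with a summed level between 3812 and 4714 CPM. The summed level of 9 markers of differentiated lineages stayed between 8.56 and 26.3 CPM, and that of 5 fibroblast markers between 8.93 and 34.5 CPM. No member of these lists was at 0 in all libraries.

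Levels of different genes were compared per length, as counts per counted codon scaled to the same sum in each library (1000000). In WT total RPFs the means of the members ran from 10.5 to 2283, beside a median of 30.3 over 10082 tested transcripts. *Tpt1* was highest with 2283 ± 37.6 (SD, n = 3), rank 27, followed by *Eef2* with 1931 ± 18.2, rank 44. *Eef1b2* (1806 ± 56.5), *Eef1g* (1723 ± 69.4) and *Eef1a1* (1711 ± 98.3) came next, and their ranges over clones overlapped, so that these neighbours in the order did not differ beyond their spread. *Pabpc1* lay lower with 925 ± 44.9 and *Eef1d* with 715 ± 38.4. *Eef1e1* reached 289 ± 6.03, rank 762, and *Eef2k* 10.5 ± 0.820, rank 7595, which was the only member below the median of all transcripts. When only uniquely mappable windows entered the denominator, the mean of *Eef1a1* became 2456 and stood above that of *Tpt1*, so the rank of *Eef1a1* among the abundant members depends on how its shared sequence is treated.

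**Figure D1:**
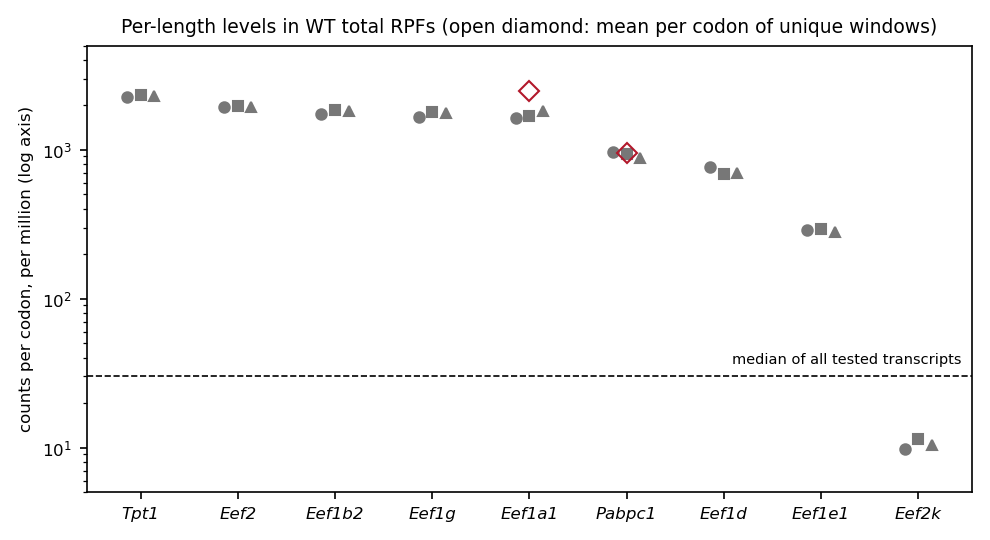
Footprint level per counted codon, scaled to the same sum in each library, in WT total RPFs for the 9 genes, on a log axis. Circles, squares and triangles are the clones of replicates 1, 2 and 3, the dashed line is the median of tested transcripts (30.3), and open diamonds give the means of *Eef1a1* and *Pabpc1* over uniquely mappable windows. *Tpt1*, *Eef2*, *Eef1b2*, *Eef1g* and *Eef1a1* lie close together, and *Eef2k* lies below the median.

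The subunit mRNAs of eEF1B kept similar footprint proportions in the total RPFs of all 3 lines. The per-codon ratio of *Eef1b2*, which encodes the catalytic alpha subunit, to *Eef1g*, the gamma subunit, was 1.06, 1.04 and 1.04 in WT clones, 1.04, 1.07 and 1.08 in *Rps27-FLAG* clones and 1.08, 1.07 and 1.06 in *Rps27l-FLAG* clones. In the IP RPFs it was 1.11, 1.13 and 1.16 for *Rps27-FLAG* and 1.14, 1.15 and 1.12 for *Rps27l-FLAG*, so that the lowest of the 6 IP ratios exceeded the highest of the 9 total ratios. The ratio of *Eef1d*, the delta subunit and a further exchange factor, to *Eef1g* averaged 0.416 in WT, 0.423 and 0.418 in the total RPFs of *Rps27-FLAG* and *Rps27l-FLAG*, and 0.446 and 0.421 in their IP RPFs, with SDs of 0.0183 to 0.0398. The conditions overlapped for this ratio.
The ratio of *Eef1a1* to *Eef2* was 0.886 ± 0.0542 in WT, 0.928 ± 0.0810 and 0.911 ± 0.0869 in the total RPFs of the tagged lines, and 1.10 ± 0.149 and 1.09 ± 0.144 in their IP RPFs, on all counted codons. On uniquely mappable windows the WT ratio was 1.27. Its spread over clones was wide, and IP and total libraries overlapped. *Eef2* exceeded its kinase *Eef2k* by 184 ± 12.9 times per codon in WT, and this ratio ranged from 149 to 296 over the 9 total libraries. The lowest and the highest of these both came from *Rps27l-FLAG* clones, at *Eef2k* counts where sampling error is large. Of 9 ratios between members computed, IP and total libraries of a line did not overlap for *Eef1b2* to *Eef1g* in both lines, for *Pabpc1* to *Eef2* in *Rps27-FLAG* (0.499, 0.499 and 0.488 in the total, 0.558, 0.547 and 0.557 in the IP) and for *Eef1a1* to *Eef1g* in *Rps27l-FLAG* (1.03, 1.02 and 1.07 in the total, 1.11, 1.17 and 1.24 in the IP). These ratios are descriptions without a test, and how often other pairs of transcripts separate in this way was not computed. The CDS of *Eef1b2* (678 nt) is shorter than that of *Eef1g* (1314 nt), and that of *Pabpc1* (1911 nt) than that of *Eef2* (2577 nt). That of *Eef1a1* (1389 nt) is slightly longer than that of *Eef1g*. The IP to total ratio fell with CDS length, as given below, and the part of length in these ratios was not tested.

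**Figure D2:**
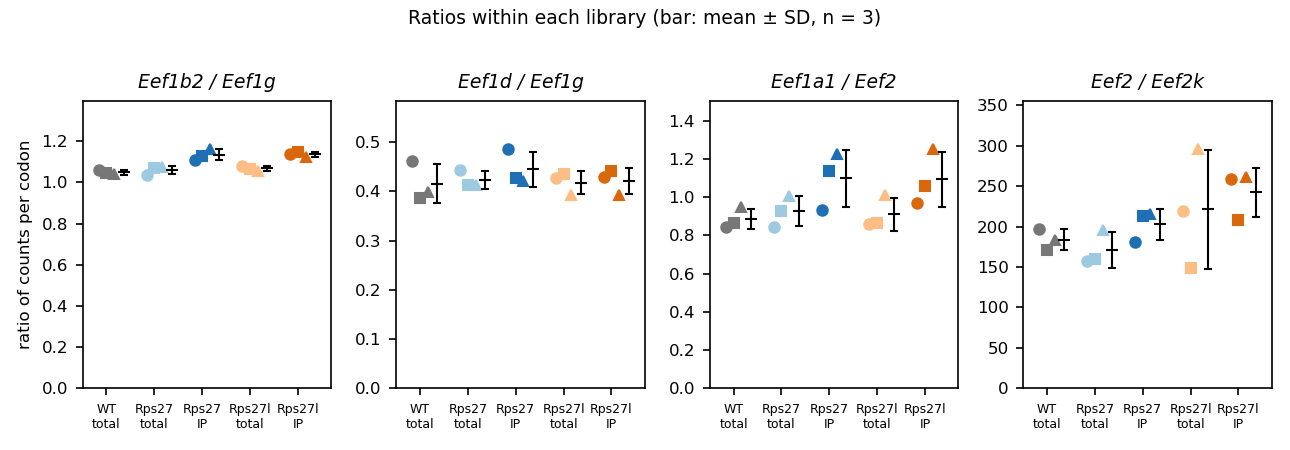
Ratios of per-codon footprint levels between members, by condition. Points are single libraries and bars the mean ± SD of 3. The *Eef1b2* to *Eef1g* ratio lies between 1.04 and 1.08 in total RPFs and between 1.11 and 1.16 in IP RPFs, whereas IP and total libraries of a line overlap for the other ratios shown.

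Total RPFs of the 3 lines addressed whether tagging Rps27 or Rps27l changed the footprints of these genes in the whole ribosome pool. Footprint counts reflect both the amount of an mRNA and its ribosome load, and in bulk cultures fewer cells of a kind and less RNA per cell cannot be told apart. *Eef1a1* had 1784, 1885 and 2052 normalized CPM in the WT clones, 1740, 1880 and 2226 in *Rps27-FLAG* and 1849, 1764 and 2022 in *Rps27l-FLAG*. *Eef2* had 4004, 4118 and 4103 in WT, 3897, 3829 and 4184 in *Rps27-FLAG* and 4080, 3872 and 3788 in *Rps27l-FLAG*. The 3 lines overlapped for both genes, and for *Eef1a1* replicate 3 was the highest in every line.
*Tpt1* had 850, 889 and 897 normalized CPM in WT, 808, 906 and 1017 in *Rps27-FLAG* and 916, 846 and 899 in *Rps27l-FLAG*. *Eef2k* had 17.1, 20.2 and 18.8 in WT, 20.8, 20.2 and 17.9 in *Rps27-FLAG* and 15.6, 21.8 and 10.7 in *Rps27l-FLAG*. The *Eef2k* spread was widest in *Rps27l-FLAG*, whose clones held both its highest and its lowest value.
With edgeR, none of the 9 genes passed an adjusted p of 0.05 in any of the 3 comparisons, where the share of all tested transcripts called was 0% each time. At an unadjusted p under 0.05 the count was 0 of 9 as well, beside 2.92%, 5.69% and 5.75% of all transcripts for *Rps27-FLAG* against WT, *Rps27l-FLAG* against WT and *Rps27l-FLAG* against *Rps27-FLAG*. DESeq2 and voom with limma called 0 members too, as did the edgeR fits with the replicate number as a block, beside 0.00992%, 1.43% and 1.36% of all transcripts. The log2 fold changes of the members lay between -0.04 (*Eef2*) and 0.07 (*Eef2k*) for *Rps27-FLAG* against WT, and between -0.21 (*Eef2k*, SE 0.21) and 0.05 (*Eef1e1*, SE 0.061) for *Rps27l-FLAG* against WT. Standard errors were 0.0476 to 0.0912 for the members other than *Eef2k*. *Eef1d* was the 1 of 9 members whose tagged lines did not overlap in the total RPFs, beside 11.5% of all transcripts, with 468, 466 and 502 normalized CPM in *Rps27-FLAG* and 455, 447 and 440 in *Rps27l-FLAG*, and the difference of -0.10 (SE 0.054, edgeR adjusted p = 0.803) did not pass. *Eef2k* was also the farthest member between the tagged lines, with -0.28 (SE 0.21, edgeR adjusted p = 0.813).
Within sequencing batches the differences from WT changed sign between batches for all 9 genes in *Rps27-FLAG*, while 31.2% of all transcripts kept 1 direction. In *Rps27l-FLAG*, *Eef1d* and *Eef1g* were below and *Eef1e1* above WT in all 3 batches, hence 3 of 9 members beside 34.8% of all transcripts, and none passed the test.

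**Figure D3:**
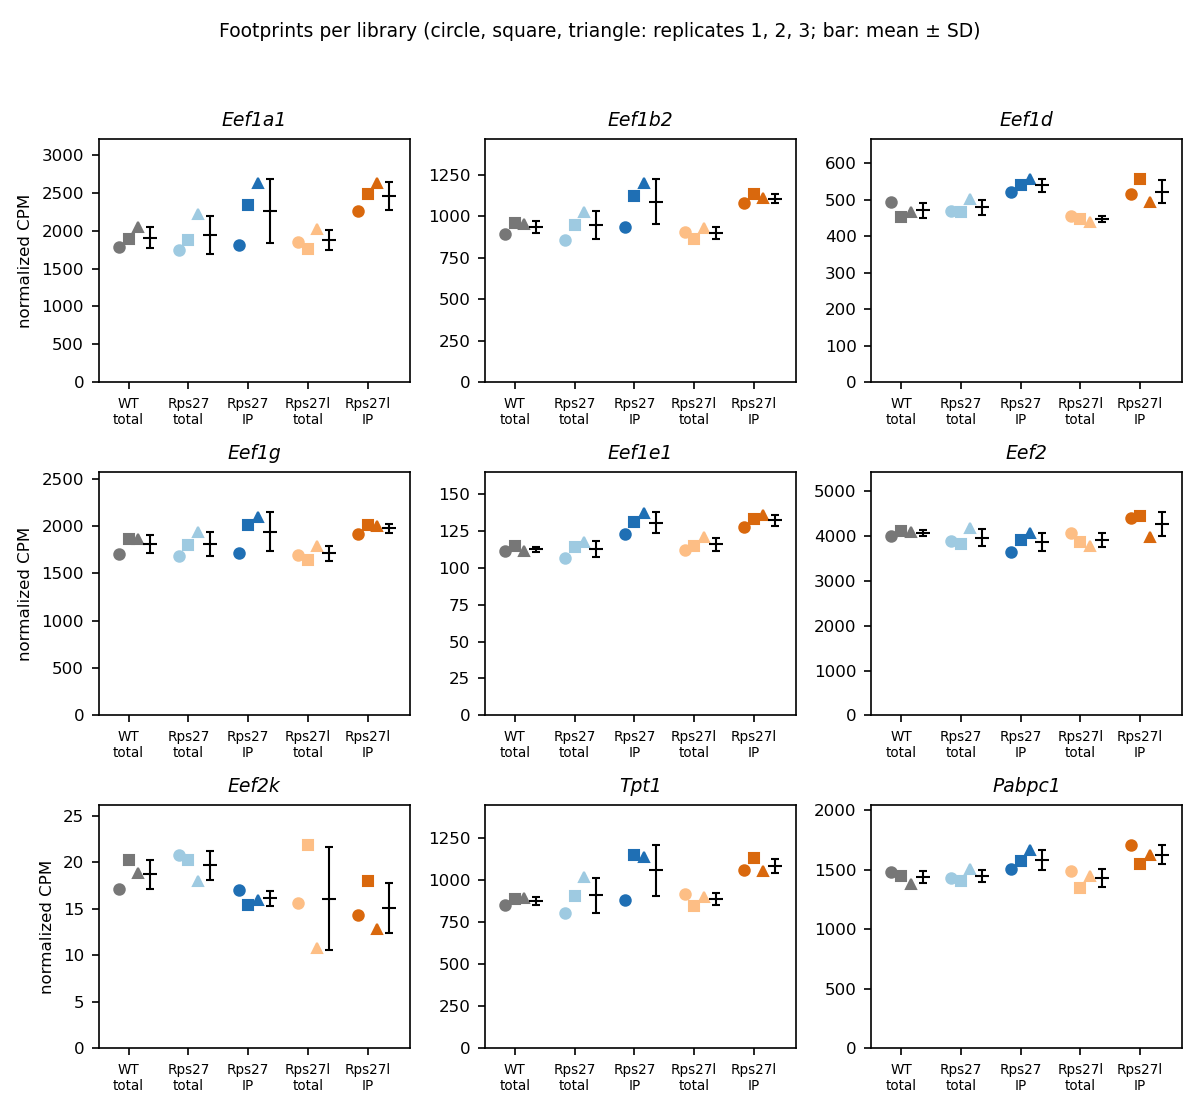
Normalized CPM of the 9 genes in the 15 libraries, 1 panel per gene. Points are libraries and bars the mean ± SD of 3 clones per condition. The total conditions overlap in each panel, except for *Eef1d* between the tagged lines, and the IP libraries tend to lie above the total libraries of their line for *Eef1a1*, *Eef1b2*, *Eef1d*, *Eef1e1* and *Tpt1* and not for *Eef2k*.

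IP RPFs were compared with total RPFs of the same line to ask which transcripts were more or less represented on the tagged ribosomes. In *Rps27-FLAG*, most genes of the set were modestly higher in the IP when each clone was set against itself. *Tpt1*, *Eef1e1*, *Eef1a1*, *Eef1b2*, *Eef1d*, *Pabpc1* and *Eef1g* were up by 0.10 to 0.22 on the log2 scale, *Eef2k* was lower and *Eef2* was near 0. *Eef1a1* had 1740, 1880 and 2226 normalized CPM in the total and 1805, 2344 and 2631 in the IP RPFs. The value was higher in the IP of each clone, although the fractions overlapped, with the replicate 1 values of the fractions close together. *Eef1e1* had 107, 114 and 117 in the total and 123, 131 and 137 in the IP, and *Eef1d* had 468, 466 and 502 in the total and 522, 541 and 555 in the IP. For these 2 genes every IP library lay above every total library, which held for 11.3% of all tested transcripts. *Eef2k* had 20.8, 20.2 and 17.9 in the total and 17.0, 15.4 and 15.9 in the IP, below the total in all clones and without overlap, as for 17% of transcripts.
*Eef2* had 3897, 3829 and 4184 in the total and 3659, 3911 and 4064 in the IP. Its fractions overlapped, and 2 of 3 clones were lower in the IP.
Without a term for the clone, edgeR called 0 of 9 members (2 at an unadjusted p under 0.05, *Eef1d* and *Eef1e1*), beside 5.67% of all transcripts at the adjusted and 22.1% at the unadjusted threshold. Only 0.327% of all transcripts were called higher in the IP. With the clone as a replicate block, 7 members were higher and 1 lower, beside 18.3% of transcripts higher and 22.9% lower. The largest blocked rises were those of *Tpt1* (0.22, SE 0.030, edgeR adjusted p = 9.37e-12), *Eef1e1* (0.21, SE 0.043, adjusted p = 6.78e-06) and *Eef1a1* (0.20, SE 0.031, adjusted p = 1.07e-09). Over the 3 clones, the log2 ratios of IP to total had SDs of 0.114, 0.0131 and 0.137 for these genes. The errors of the fit draw in part on other transcripts, so these SEs and adjusted p do not measure the spread between clones. *Eef1b2* rose by 0.20, *Eef1d* by 0.17, *Pabpc1* by 0.13 and *Eef1g* by 0.10 (adjusted p at most 0.00437), and *Eef2k* fell by 0.29 (SE 0.11, adjusted p = 0.0281). *Eef2* was at -0.03 (adjusted p = 0.444).
Without *Rps27-FLAG* replicate 1, the unblocked fit called 5 members, *Eef1a1*, *Eef1b2*, *Eef1d*, *Eef1e1* and *Tpt1*. In the blocked fit, *Eef2k* lost its call without replicate 1 (adjusted p = 0.111) or replicate 2 (0.182), *Eef1g* without replicate 2 (0.139) or replicate 3 (0.236), and *Pabpc1* without replicate 3 (0.0975).

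In *Rps27l-FLAG*, 8 of the 9 genes were higher in the IP of every clone, which held for 23.3% of all transcripts, and the exception was *Eef2k*. In *Rps27-FLAG* this count was 7 of 9, beside 28.7%. *Eef1a1* had 1849, 1764 and 2022 normalized CPM in the total and 2262, 2482 and 2629 in the IP RPFs. *Tpt1* had 916, 846 and 899 in the total and 1061, 1132 and 1058 in the IP, and *Eef1b2* had 906, 861 and 932 in the total and 1078, 1134 and 1109 in the IP. For these 3 genes the lowest IP value exceeded the highest total value.
The same separation held for *Eef1d*, *Eef1e1*, *Eef1g* and *Pabpc1*, hence for 7 of 9 members, and for 9.11% of all transcripts, while 0 of 9 members had every IP value below every total value, beside 14.2%. *Eef1g* had 1698, 1639 and 1792 in the total and 1919, 2005 and 2001 in the IP, and *Pabpc1* had 1490, 1344 and 1449 in the total and 1705, 1548 and 1621 in the IP. *Eef2* had 4080, 3872 and 3788 in the total and 4408, 4446 and 3974 in the IP, where the fractions overlapped although each clone was higher in the IP. *Eef2k* had 15.6, 21.8 and 10.7 in the total and 14.3, 18.0 and 12.8 in the IP, which overlapped and went up in replicate 3 only.
The unblocked edgeR test called 3 genes, all higher in the IP, beside 3.1% of all transcripts in either direction and 0.833% higher. At an unadjusted p under 0.05 the count was 8 of 9, beside 17.4%. *Eef1a1* rose by 0.39 (SE 0.070, adjusted p = 0.0258), *Eef1b2* by 0.30 (SE 0.047, adjusted p = 0.0194) and *Tpt1* by 0.29 (SE 0.050, adjusted p = 0.0235). *Eef1d* (0.22, adjusted p = 0.0782), *Eef1g* (0.21, 0.0581), *Eef1e1* (0.19, 0.205), *Pabpc1* (0.19, 0.129) and *Eef2* (0.13, 0.281) did not pass it, and *Eef2k* was at -0.11 (0.900). With the clone as a replicate block, 8 members were higher, beside 12% of all transcripts, with *Eef2* at 0.13 (SE 0.027, adjusted p = 0.000140), and *Eef2k* was not called (adjusted p = 0.565). The *Eef2* log2 ratios of IP to total had an SD of 0.0664 over the 3 clones, a spread that the blocked SE does not measure. The 3 unblocked calls were lost without *Rps27l-FLAG* replicate 1 (adjusted p 0.145 to 0.165) or replicate 2 (0.381 to 0.410). The blocked count was 8 whichever replicate was left out. Such fits hold few libraries beside their terms, so this count says little about the spread between clones.
The median log2 fold change of the 9 members was 0.17 in *Rps27-FLAG* and 0.21 in *Rps27l-FLAG*, beside -0.01 and -0.03 over all tested transcripts. The mESC markers moved too, with medians of 0.19 and 0.18, and 10 and 8 of the 10 were higher in the blocked fits. Their part in the results was not tested.

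**Figure D4:**
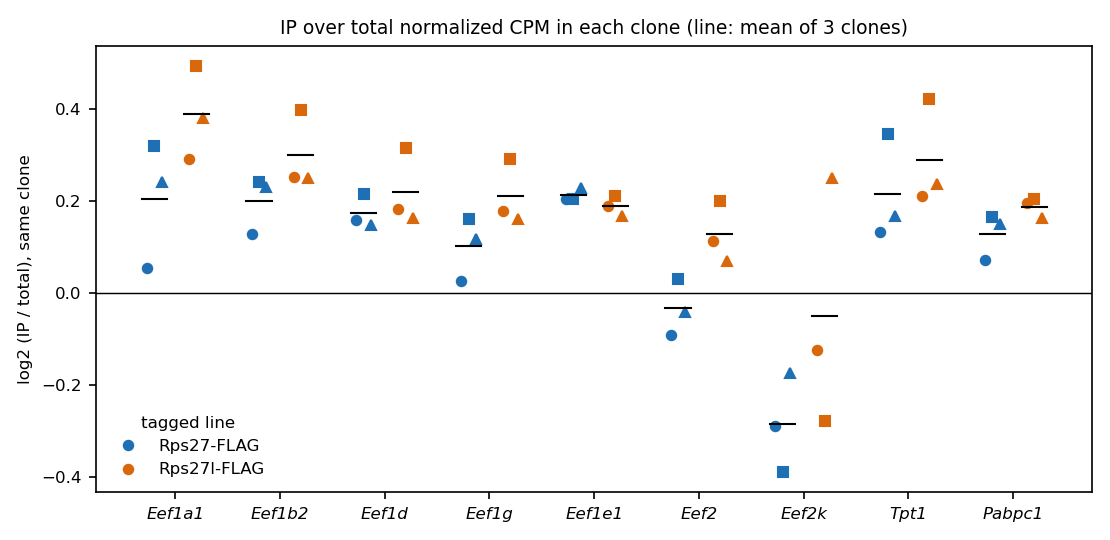
Log2 ratio of IP to total normalized CPM per clone for the 9 genes, with circles, squares and triangles for replicates 1, 2 and 3 of each tagged line, short horizontal lines for their mean and a long line at 0. In *Rps27l-FLAG* 8 genes lie above 0 in every clone, and for *Eef1b2*, *Eef1g* and *Eef2* the *Rps27l-FLAG* clones lie above the *Rps27-FLAG* clones.

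The IP to total ratio fell with CDS length across the 10085 transcripts, which share these libraries (Spearman's rho -0.562 for *Rps27-FLAG*, -0.527 for *Rps27l-FLAG*). The CDS of *Eef2*, *Eef2k* and *Pabpc1* is longer than the median of 1443 nt, and that of the other members is shorter. Among transcripts within 10% of the *Eef1a1* CDS length, the median log2 fold change was -0.03 in *Rps27-FLAG* and -0.04 in *Rps27l-FLAG*, where *Eef1a1* itself was at 0.21 and 0.39. Around *Eef2* it was -0.13 in both lines, where *Eef2* was at -0.03 and 0.13. Around *Eef1b2* it was 0.13 and 0.08, where *Eef1b2* was at 0.20 and 0.30, and around *Eef1e1* 0.16 and 0.11, where *Eef1e1* was at 0.21 and 0.19. Among the 9 genes, *Eef1a1* stood farthest above the median of transcripts of like length in both lines.
After the trend with CDS length was removed from each library, the blocked fit in *Rps27-FLAG* called 6 members higher, beside 18.4% of all transcripts: *Eef1a1* (0.24), *Pabpc1* (0.22), *Eef1g* (0.13), *Eef2* (0.12, adjusted p = 0.00570), *Eef1d* (0.11) and *Eef1b2* (0.10). The calls of *Tpt1* (0.08, adjusted p = 0.0541), *Eef1e1* (0.07, 0.204) and *Eef2k* (-0.18, 0.257) were lost, and *Eef2* turned from a value below 0 to one above it. In *Rps27l-FLAG* the same fit called 7 members higher, beside 14.7% of all transcripts, with *Eef1a1* at 0.43, *Pabpc1* at 0.27 and *Eef2* at 0.27. There *Eef1e1* (0.08, adjusted p = 0.181) and *Eef2k* (-0.00, 0.997) did not pass. Without the block and with the trend removed, 0 members passed in *Rps27l-FLAG* (*Eef1a1* at 0.43, adjusted p = 0.0804).

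**Figure D5:**
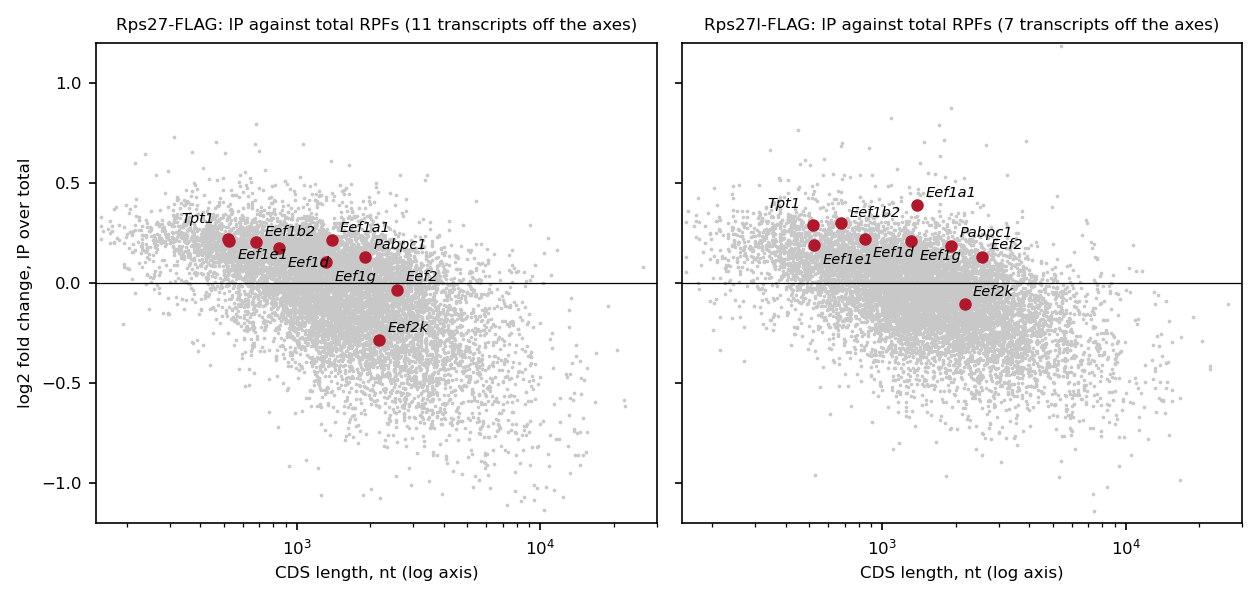
Log2 fold change of IP against total RPFs (unblocked edgeR fit) plotted against CDS length in nt on a log axis for tested transcripts in *Rps27-FLAG* and *Rps27l-FLAG*, with the 9 genes in red. The cloud falls with length (Spearman's rho -0.562 and -0.527). In *Rps27l-FLAG* all members except *Eef2k* lie above the median of transcripts of like length, and *Eef1a1* lies farthest above it.

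A single fit of 12 libraries, with clone as a term, set the IP effect of *Rps27l-FLAG* against that of *Rps27-FLAG* and asks whether a transcript was held by Rps27l-FLAG ribosomes more than by Rps27-FLAG ribosomes. None of the 9 members passed both the adjusted p of 0.05 and the study's limit of 0.25 on the size of the log2 fold change, beside 0.575% of all transcripts that did. At an unadjusted p under 0.05 the count was 4 of 9, beside 12.1% of all transcripts. Without the limit on the fold change, *Eef1a1* and *Eef2* passed, both toward Rps27l-FLAG, beside 1.36% of transcripts in that direction. Counted from the highest difference down, *Eef1a1* ranked 1178 and *Eef2* 1388 of 10085 transcripts. The clone log2 ratios of *Eef1a1* were 0.05, 0.32 and 0.24 in *Rps27-FLAG* and 0.29, 0.49 and 0.38 in *Rps27l-FLAG*, which overlapped. The *Eef2* ratios were -0.09, 0.03 and -0.04 against 0.11, 0.20 and 0.07, and they did not overlap.
The difference was 0.18 for *Eef1a1* (SE 0.042, edgeR adjusted p = 0.00438) and 0.16 for *Eef2* (SE 0.040, adjusted p = 0.0115), factors whose products act in alternation in each elongation cycle. The clone ratios had SDs of 0.137 (*Rps27-FLAG*) and 0.101 (*Rps27l-FLAG*) for *Eef1a1*, and 0.0611 and 0.0664 for *Eef2*. The SEs of the fit do not measure this spread between clones. Within sequencing batches the difference was 0.24, 0.17 and 0.14 for *Eef1a1* and 0.20, 0.17 and 0.11 for *Eef2*. *Eef1g* (0.11, adjusted p = 0.158), *Eef1b2* (0.10, 0.217), *Tpt1* (0.07, 0.503), *Pabpc1* (0.06, 0.572), *Eef1d* (0.05, 0.709), *Eef2k* (0.18, SE 0.17, 0.746) and *Eef1e1* (-0.02, 0.943) did not pass. In 8 of 9 members the difference was above 0 in all 3 batches, beside 17.3% of all transcripts, and *Eef1e1* was the exception.
*Eef1b2* and *Eef1g* clones did not overlap between the lines either, with all *Rps27l-FLAG* ratios above all *Rps27-FLAG* ratios, as for 9.02% of all transcripts. The *Eef1a1* call was lost without *Rps27-FLAG* replicate 1 (0.11, adjusted p = 0.244), *Rps27l-FLAG* replicate 2 (0.13, 0.0919) or *Rps27l-FLAG* replicate 3 (0.19, 0.0627), and with DESeq2 (0.535). The *Eef2* call was lost without *Rps27-FLAG* replicate 1 (0.0826) or 3 (0.129) or *Rps27l-FLAG* replicate 1 (0.0521) or 2 (0.130), and with the length trend removed (0.14, adjusted p = 0.0810).

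Genes with related roles were taken as fixed lists and read beside the members. In the total RPFs none of their members was called in any comparison of lines. Of all tested transcripts, the unblocked fits called 0.327% higher and 5.34% lower in *Rps27-FLAG* and 0.833% higher and 2.27% lower in *Rps27l-FLAG*. The blocked fits called 18.3% higher and 22.9% lower in *Rps27-FLAG* and 12% higher and 19% lower in *Rps27l-FLAG*, and the list counts are to be read beside these shares. Of 12 other factors of elongation, termination and ribosome recycling, 0 passed the unblocked test in *Rps27-FLAG* and 1 in *Rps27l-FLAG*: *Eif5a*, the hypusinated factor that eases peptide bond formation, rose by 0.32 (adjusted p = 0.0313). With the block, 3 of the 12 rose and 2 fell in *Rps27-FLAG*, while 2 rose and 1 fell in *Rps27l-FLAG*. *Abce1*, which splits ribosomes after termination, fell by 0.23 (adjusted p = 6.66e-13) and 0.14 (4.81e-05). Of 12 tested enzymes that modify eEF1A or eEF2, 0 passed the unblocked test in either line, and 1 was higher and 1 lower in each blocked fit.
Among 4 mitochondrial elongation factors, the unblocked test called 2 lower in *Rps27-FLAG* and 1 in *Rps27l-FLAG*. *Gfm2* fell by 0.46 (adjusted p = 0.00382) and *Gfm1* by 0.42 (0.0201) in *Rps27-FLAG*, and *Gfm1* fell by 0.40 (0.0124) in *Rps27l-FLAG*. Both act on mitochondrial ribosomes, *Gfm1* in elongation and *Gfm2* in recycling, and their CDS lengths are 2256 nt (*Gfm1*) and 2340 nt (*Gfm2*). With the block, 3 of the 4 genes of this list were lower in each line.
Of 10 tested mRNAs among other known TOP mRNAs, *Eif4b*, an initiation factor, rose in both lines (0.23, adjusted p = 0.0471, and 0.28, 0.0183), and *Npm1*, a nucleolar chaperone, rose in *Rps27l-FLAG* (0.34, 0.0358). In the blocked fits 6 of these rose and 3 fell in *Rps27-FLAG*, while 6 rose and 1 fell in *Rps27l-FLAG*. *Rack1*, a ribosomal scaffold protein, and *Npm1* were more represented in the Rps27l-FLAG than in the Rps27-FLAG IP without the limit on the fold change, by 0.20 (0.000574) and 0.16 (0.0185).
Of 74 tested cytosolic ribosomal protein transcripts, 0 passed the unblocked test in *Rps27-FLAG* and 39 were higher in *Rps27l-FLAG*, with medians of 0.21 and 0.31. With the block and the length trend removed, these medians were 0.05 in *Rps27-FLAG* and 0.19 in *Rps27l-FLAG*. In the blocked fits 58 rose and 2 fell in *Rps27-FLAG*, while 61 rose in *Rps27l-FLAG*. The IP effect of *Rps27l-FLAG* against *Rps27-FLAG* was above 0 for 68 of the 74, with a median of 0.09. Without the limit on the fold change 4 passed, all higher, beside 1.36% of all transcripts. These were *Rpl24* (0.21, edgeR adjusted p = 0.0416), *Rpl5* (0.19, 0.000922), *Rpl3* (0.18, 0.00175) and *Rpl35a* (0.15, 0.0416).
Of 10 tested members of the multi-tRNA synthetase complex, which holds the *Eef1e1* product, 0 rose and 4 fell in the blocked *Rps27-FLAG* fit, while 1 rose and 3 fell in *Rps27l-FLAG*. Their median was -0.03 in both lines in the unblocked fits. With the block and the length trend removed, it was 0.05 in *Rps27-FLAG* and 0.09 in *Rps27l-FLAG*. *Mars*, the methionyl-tRNA synthetase, fell by 0.31 (adjusted p = 0.0201) in *Rps27-FLAG* without the block. The IP effect of *Rps27l-FLAG* against *Rps27-FLAG* was above 0 for 9 of these 10. Of them *Mars* passed without the limit on the fold change (0.14, edgeR adjusted p = 0.0483).
Among 20 genes of mTORC1, LARP1 and eEF2K regulation, *Tsc2* (fell by 0.65, adjusted p = 0.00242), *Mtor* (fell by 0.59, 0.00316) and *Rptor* (fell by 0.56, 0.0107) were lower and *Eif4ebp1* was higher (0.26, 0.0416) in *Rps27-FLAG*. In *Rps27l-FLAG*, *Rptor* fell by 0.47, *Tsc2* by 0.44 (both adjusted p = 0.0188) and *Mtor* by 0.42 (0.0237). In the blocked fits 5 of the 20 rose and 7 fell in *Rps27-FLAG*, while 5 rose and 4 fell in *Rps27l-FLAG*. The CDS lengths are 5229 nt (*Tsc2*), 7650 nt (*Mtor*), 4008 nt (*Rptor*) and 354 nt (*Eif4ebp1*). *Larp1* was at -0.04 in *Rps27-FLAG* and 0.04 in *Rps27l-FLAG*, and was not called.
Of 8 tested partners and paralogs of *Pabpc1*, the deadenylase gene *Pan2* fell by 0.49 (0.00907) and the PABP inhibitor gene *Paip2* rose by 0.26 (0.0411) in *Rps27-FLAG*, and none passed in *Rps27l-FLAG* without the block. With it, 4 of the 8 rose and 2 fell in *Rps27-FLAG*, while 2 rose and 2 fell in *Rps27l-FLAG*.

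Across the 15 libraries, which share batches, clones and fractions, the abundant members varied together. Pearson's r of log2 normalized CPM was 0.957 between *Eef1a1* and *Eef1b2*, 0.965 between *Eef1b2* and *Eef1g*, and 0.970 between *Eef1b2* and *Tpt1*. *Eef2* was less like the others, with r between 0.24 and 0.50 to the members other than *Eef2k*. *Eef2k* ran opposite to *Eef1a1* (-0.47) and *Pabpc1* (-0.55) and had an r of 0.04 with *Eef2*, at counts of 50 to 177 a library.
Among 3952 transcripts with a mean of at least 50 CPM, those most like *Eef1a1* were *Npm1* (0.989), *Rpl32* (0.984) and *Prdx1* (0.984). Among the transcripts most like *Tpt1* were *Rps15* (0.974) and *Rpl36* (0.973), both ribosomal protein genes. The nearest to *Eef2* reached only 0.714 (*Atp5c1*), 0.697 (*Rpl3*) and 0.685 (*Txnrd1*), and the nearest to *Eef2k* were *Esrp1* (0.847), *Tdrd12* (0.838) and *Aldh9a1* (0.828).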

How the data were processed

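Ribosome-protected fragments were counted in 15 libraries of mESC clones. The authors trimmed reads with cutadapt 2.4, removed duplicates by molecular identifier with UMI-tools 1.0.1, aligned with Bowtie2 2.3.4.3 to GRCm38 transcripts, kept unique alignments and deposited raw counts of A sites per CDS without the first 15 and last 5 codons. Groups, clones and batches came from the labels and the study's supplement. From these counts, normalized CPM were computed with TMM factors, estimated separately for IP and total RPFs. Transcripts with CPM over 2 in at least 14 libraries were kept, and 13 mitochondrially encoded transcripts were left out. Counts were tested across 10085 transcripts with edgeR 4.0.16 (R 4.3.3, quasi-likelihood F-test, Benjamini-Hochberg adjustment, threshold 0.05). Its errors draw in part on the spread of all transcripts, so they can be smaller than the spread of a gene between clones. For the 2 IP comparisons the clone was a replicate block in an alternative fit. IP and total residuals of a clone correlated with r of 0.483 to 0.798 in all 6 tagged clones, whose libraries come from the same cells, so the blocked values are printed where they change a call. The comparison of IP effects had clone in the main fit. Alternatives used limma 3.58.1, DESeq2 1.42.0, other scaling and filters, a loess of span 0.5 on CDS length, and leaving out each replicate. The test was tried on simulated counts, with changes larger than those of the called members and no spread shared by the libraries of a clone. That trial therefore does not cover changes of the size seen here. Positions and CDS lengths are those of GENCODE M21, in which 21713 of 21727 transcripts had an entry. The genes and lists were chosen with earlier results of these data known. All members are named in each comparison, and of each related list at most 4 called genes with the largest change. For *Eef1a1*, *Eef2*, *Tpt1* and *Eef2k* the 3 transcripts with the highest correlation are named as well, except 1 that is not reported here. *Abce1*, *Larp1* and CDS lengths were named after their values were seen.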

Additional observations from a re-analysis of the deposited data

Results flagged for a closer look

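The IP effect differed between the tagged lines for *Eef1a1* by 0.18 on the log2 scale (Rps27l-FLAG minus Rps27-FLAG, edgeR adjusted p = 0.00438) and for *Eef2* by 0.16 (adjusted p = 0.0115). Both were tested by the difference itself, in 1 fit of 12 libraries with clone as a term. The errors of this fit do not measure the spread between clones. The clone ratios of IP to total overlapped between the lines for *Eef1a1* and not for *Eef2*. Each difference was above 0 in 3 of 3 sequencing batches. Both lay under the study's limit of 0.25 on the size of a change. These calls were lost when single clones were left out, each with its IP and its total library, in fits that also hold fewer libraries. Without *Rps27-FLAG* replicate 1 the *Eef1a1* difference was 0.11 (edgeR adjusted p = 0.244) and the *Eef2* difference 0.13 (0.0826). The *Eef1a1* call was also lost without *Rps27l-FLAG* replicate 2 (0.0919) or 3 (0.0627), and the *Eef2* call without *Rps27-FLAG* replicate 3 (0.129) or *Rps27l-FLAG* replicate 1 (0.0521) or 2 (0.130).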

How the results depend on the processing

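The counts of members called in the total RPFs were 0 under every alternative run, the replicate block included. For *Rps27-FLAG* IP against total RPFs, 0 members were called without the replicate block, 8 with it, and 6 with the block and the length trend removed. Leaving out 1 replicate gave 0 to 5 without the block and 6 to 7 with it. For *Rps27l-FLAG* the count was 3, with 5 by DESeq2, 8 with the replicate block, 0 with the length trend removed and 7 with both. Leaving out 1 replicate gave 0 to 3 without the block and 8 with it. In both lines the blocked fits without 1 replicate hold few libraries beside their terms, and their counts say little about the spread between clones. For the IP effect, 0 members passed with the limit on the fold change and 2 without it, and 0 to 2 when 1 replicate was left out. Over all transcripts, calls in *Rps27-FLAG* numbered 572, 4154 with the block and 27 with the length trend removed, and in *Rps27l-FLAG* 313, 3128, 8 and 460 with DESeq2. Leaving out 1 replicate gave 0 to 1817 and 0 to 319. The IP effect had 58 calls, 151 without the limit, 29 with the length trend removed, 11 by DESeq2 and 0 without the block. The fits that leave out a replicate with the block, or without the limit, and the GENCODE start were added after seeing the data. The cause of these changes was not tested.

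The WT level of *Eef1a1* was 1711 over all counted codons and 2456 over uniquely mappable windows. The TOP run was found in 1 gene with the relaxed position and in 1 with the GENCODE start.

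Some uncalled values near 0 changed sign. For *Rps27-FLAG* against WT, *Eef1e1* became -0.000351 with voom and limma and -0.00105 without a filter. With the length trend removed, *Eef2* in the *Rps27-FLAG* IP became 0.13 (0.12 with the block), *Eef2k* in the *Rps27l-FLAG* IP 0.00390 and *Eef1e1* in the IP effect 0.0101. When 1 replicate was left out, the total RPF differences for *Rps27-FLAG* against WT ran from -0.0753 to 0.106 (*Eef1a1*), -0.0501 to 0.0787 (*Eef1b2*), -0.0113 to 0.0586 (*Eef1d*), -0.0273 to 0.0409 (*Eef1e1*), -0.0568 to 0.0461 (*Eef1g*), -0.0182 to 0.0316 (*Pabpc1*) and -0.0359 to 0.130 (*Tpt1*). For *Rps27l-FLAG* against WT they ran from -0.0782 to 0.0339 (*Eef1a1*), -0.496 to 0.00329 (*Eef2k*), -0.0394 to 0.0343 (*Pabpc1*) and -0.0102 to 0.0469 (*Tpt1*), and between the tagged lines from -0.128 to 0.0534 (*Eef1a1*), -0.0517 to 0.0187 (*Eef2*), -0.0498 to 0.0240 (*Pabpc1*) and -0.116 to 0.0496 (*Tpt1*). *Eef2k* in the *Rps27l-FLAG* IP ran from -0.227 to 0.0384, and was 0.0138 without *Rps27l-FLAG* replicate 2 with the block. Of the values for single members, 690 kept their direction and side of the threshold, 74 newly passed, 9 lost their call and 37 changed sign. With 50 to 177 counts per library, *Eef2k* had the widest errors of the set.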
